A study of Mus musculus with 2 samples.

Results

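Gsx2 progenitors of the septal explants were the cells in which at least 1 transcript of Gsx2 was counted while markers of the neighbouring territories were low or absent. Transcripts were counted as unique molecular identifiers (UMIs), 1 for each captured molecule. A cell was kept when its mitochondrial share was under 4% of UMIs, when UMIs of 7 progenitor genes (Sox2, Hes1, Hes5, Vim, Nes, Fabp7 and Slc1a3) exceeded UMIs of 6 neuronal genes (Tubb3, Stmn2, Dcx, Elavl3, Gap43 and Mapt), and when it held at least 1 UMI of Gsx2, none of Nkx2-1 or Emx1, at most 2 of Fgf8 and Fgf17 together and at most 1 of Dlx1 and Dlx2 together. This left 176 cells, 4.62% (95% exact binomial interval 3.98 to 5.34) of the 3807 progenitors of that library, which held 5827 cell barcodes of the 20110 in the series. The other 3631 progenitors served as the comparator.

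The septal library pooled explants around the septum from 8 PGKCre;Rosa26YFP embryos at E11.5 and 4 Dbx1Cre;Rosa26tdTomato embryos at E12.5, each kind from 2 litters, on a C57BL/6J background. PGKCre is a broadly active driver that switches on YFP in nearly all cells, and Dbx1Cre switches on tdTomato in cells whose lineage has expressed Dbx1. The labels call both libraries wild-type, although all septal embryos carried a Cre and a reporter allele. The telencephalic vesicle library pooled 3 wild-type C57BL/6J embryos from 2 litters, labelled E12 and given in the methods as E11.5 to E12, and carried neither reporter. Each tissue was therefore 1 pooled library, so no difference between embryos could be tested, and every interval given here covers counting error only.

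Gsx2 is a homeodomain factor of the lateral ganglionic eminence, the ventral territory that borders the pallium, where it holds pallial identity in check opposite Pax6. In its progenitors the Dlx genes come on after Gsx2, with commitment to GABAergic neurons. Olig1 and Olig2 are basic helix-loop-helix factors of ventral progenitors and later of the oligodendrocyte lineage, and Nkx2-1 marks the more ventral medial ganglionic eminence.

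Gsx2 (ENSMUSG00000035946) lies on chr5:75075601-75077893 of mm10, plus strand. Its UMIs ranged from 1 to 10 per cell with a median of 2. A single UMI was counted in 85 cells, 2 in 36 and 3 or more in 55. The 396 UMIs made 151.9 CPM (UMIs of a gene scaled to a common total per class). The cells were chosen by their UMIs of these rule genes, so the values of those genes describe the population and test nothing. Of the other rule genes, Dlx1 and Dlx2 were at 0 in 129 cells and at 1 in 47, and Fgf8 and Fgf17 were at 0 in 134.

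Depth and quality of the Gsx2 progenitors were close to those of the other progenitors. Their median was 13193 UMIs (6255 to 43722) and 3649.5 genes per cell, against 14032 UMIs and 3788 genes. Median mitochondrial shares were 2.05% and 2.09%, ribosomal shares 19.98% and 20.33%, and globin shares 0.0528% and 0.0565%. The comparator held 56 cells with over 1% globin transcripts and 57 others with mesenchymal, vascular or macrophage transcripts, whereas the Gsx2 progenitors held none of either kind. Lower genes were therefore also counted against the 3518 neural cells that remained, and these counts are given for the leading genes and for the lists whose calls they changed. 1 barcode was shared by both libraries.

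Gsx2, Olig1 and Olig2 were the markers proposed for these cells. Gsx2 was set by the rule and so was not tested. Of the other 2, only Olig2 was higher than in the other progenitors of this library. Olig2 (chr16:91225457-91228677, plus strand) had 154 UMIs in the Gsx2 progenitors, between 0 and 6 per cell with a median of 0. That made 59.1 CPM (50.1 to 69.2) against 29.8 in the other progenitors, a ratio of 1.98 (1.67 to 2.34). Olig1, its neighbour 41095 bases downstream (chr16:91269772-91271933), had 56 UMIs, 0 to 3 per cell, and 21.5 CPM against 18.0, and its ratio of 1.19 (0.896 to 1.56) did not separate the populations. At least 1 UMI of Olig2 was found in 47.2% of the cells (39.6 to 54.8) against 24.7% of other progenitors. Olig1 UMIs were found in 25% (18.8 to 32.1) against 17.4%. In blood cells, which should lack both genes and had a median of 25668 UMIs, the shares were 3.37% for Olig2 and 1.12% for Olig1.

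With every cell thinned to 8000 UMIs, which left out 4 Gsx2 progenitors and 400 of the other progenitors, the Olig2 shares were 33.7% and 18.4% and the Olig1 shares 10.5% (6.32 to 16.03) and 12.04%. The interval of the thinned Olig1 share held the share of the other progenitors, so no order could be read for Olig1. Both genes were detected together in 24 cells, Olig2 alone in 59, Olig1 alone in 20 and neither in 73. The oligodendrocyte lineage markers Sox10 and Cspg4 were at 0 and Pdgfra had 8 UMIs. Together the 3 made 3.07 CPM, against 1.47 CPM from 83 UMIs in the other progenitors. None was abundant enough to enter the gene counts below.

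Levels beside the Gsx2 threshold are given as a description. Olig2 stood at 54.9 CPM in cells with 1 Gsx2 UMI, 62.0 with 2, 63.3 with 3 or more, and 30.2 in the 599 cells that met every other condition but had no Gsx2 UMI. Those 599 included 40 blood cells and other non-neural cells, and the 524 neural cells among them stood at 37.6. Meis2, a homeodomain partner of Hox and Pbx proteins, stood at 294, 266, 339 and 164 CPM, with 204 in the neural cells, so cells with a single Gsx2 UMI were closer to the cells with more than to those with none for both genes. Pax6 stood at 128, 128, 109 and 149 CPM, with 184 in the neural cells. At the Dlx limit, the 47 cells with 1 UMI had 53.8 CPM of Olig2 (37.9 to 74.2). The 35 cells with 2 UMIs, just outside, had 37.7 (23.6 to 57.1), and these intervals overlapped. At the other limits, the cells just outside numbered 57 with 1 UMI of Emx1, 8 with 1 of Nkx2-1, 4 with 3 of Fgf8 and Fgf17, and 11 whose neuronal UMIs matched or exceeded the progenitor UMIs.

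Across the 9297 genes with at least 300 UMIs in both populations together and not used by the rule, 184 genes (1.98%) were at least 1.5-fold higher in the Gsx2 progenitors and 667 (7.17%) at least 1.5-fold lower, with a median log2 ratio of 0.01. The counting interval lay above equality for 178 of the higher genes and below it for 511 of the lower genes, and it cleared 1.5-fold for 30 and 173. At the floor of 300 UMIs about 13.3 were expected in the Gsx2 progenitors, so single genes near it were measured loosely. Against the neural comparator the counts were 153 (1.66%) and 613 (6.67%).

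The 4 highest genes encode receptors, ligands and other surface or secreted proteins. Ednrb, the endothelin receptor B (ENSMUSG00000022122, chr14:103814625-103844402, minus strand), had 61 UMIs, at most 3 in a cell and 0 in 128 cells. Its level was 23.4 CPM against 6.14, a ratio of 3.81 (2.86 to 5.02). Apela, a peptide ligand of the apelin receptor (ENSMUSG00000079042, chr8:65028417-65037336, minus strand), had 91 UMIs and 34.9 against 9.81 CPM, a ratio of 3.56 (2.82 to 4.45). Each of these genes was therefore caught in a minority of the cells, and the pooled level is better measured than the share of cells that used it.

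Islr2, a leucine-rich repeat and immunoglobulin protein of growing axons (ENSMUSG00000051243, chr9:58196297-58204319, minus strand), reached 48.3 CPM against 14.2, a ratio of 3.40 (2.79 to 4.10), with 126 UMIs, at most 6 in a cell. It overlaps Islr on the same strand, and reads of the overlap cannot be assigned with certainty. Vwc2, which encodes the secreted BMP antagonist Brorin (ENSMUSG00000050830, chr11:11114223-11268931, plus strand), reached 43.4 CPM against 12.9, a ratio of 3.36 (2.73 to 4.10), with 113 UMIs, at most 5 in a cell. Fgf15, an FGF ligand of the ventral and septal telencephalon, had 548 UMIs, 0 to 31 per cell with a median of 2, and 210 CPM against 104, a ratio of 2.03 (1.86 to 2.21). Fgf15 was at 0 in 39 cells, Vwc2 in 100 and Islr2 in 107.

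Of the other leading genes, 3 encode transcription factors. Meis2 had 790 UMIs, 0 to 24 per cell with a median of 4 and only 9 cells at 0, and 303 CPM against 141, a ratio of 2.15 (1.996 to 2.31). Pou3f2, a POU factor of neural progenitors, had a ratio of 2.44 (2.01 to 2.95) and Zbtb20, a zinc finger factor, 2.101 (1.92 to 2.30). The list also held the metallothionein Mt3 at 2.17 (1.97 to 2.38) and the acyl-CoA synthetase Acsbg1 at 2.47 (1.89 to 3.18). These 10 genes also led against the neural comparator, where Ednrb stood at 3.68 and Meis2 at 2.06.

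**Figure D1:**
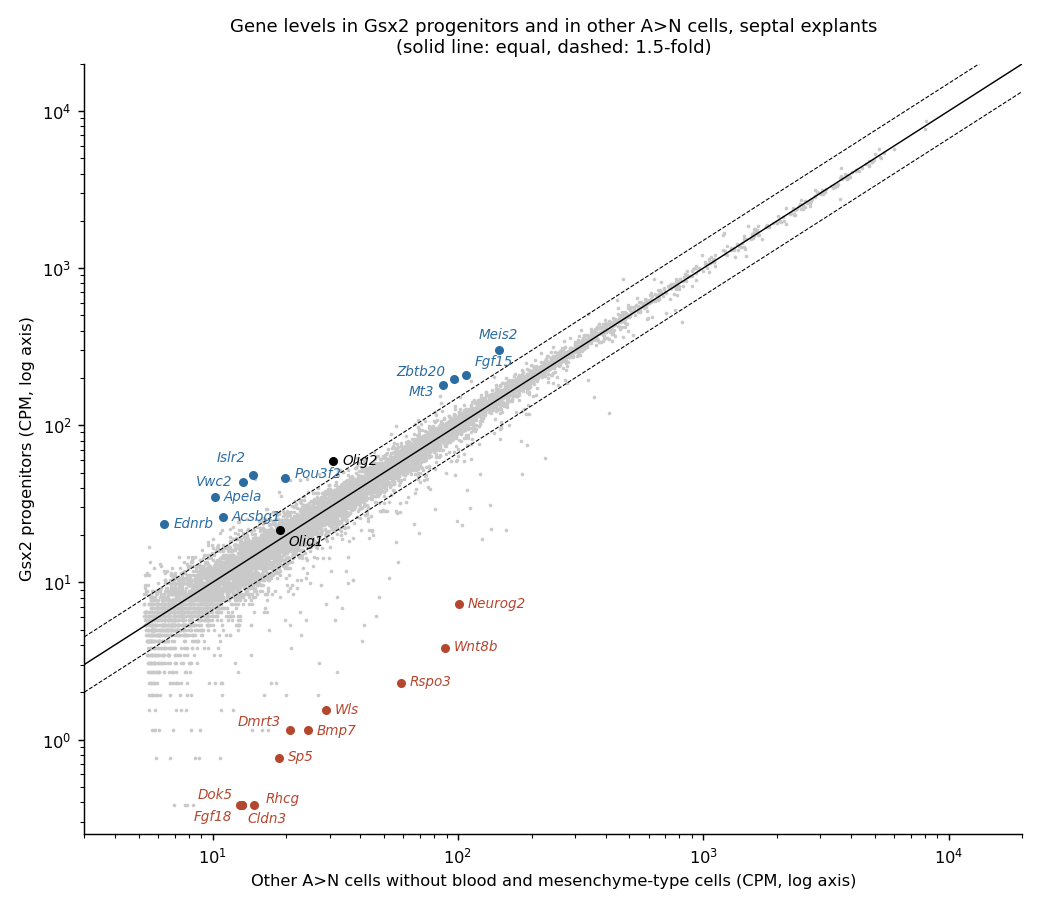
Level of each gene in the 176 Gsx2 progenitors (vertical axis) against the other neural progenitors of the septal explants (horizontal axis), both in CPM on log axes, with 1 point per gene. Dashed lines mark 1.5-fold, blue points the leading higher genes and red points the leading lower genes, and genes with no UMI in the Gsx2 progenitors, such as Dct, are not drawn; most genes lie along the diagonal and the red points lie farther from it than the blue.

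At the lower end, 8 of the 11 leading genes against all other progenitors were of red blood cells. Hba-a1 stood at 41.1 CPM against 2146 and Hbb-y at 334 against 9378 CPM. With the blood and mesenchymal cells left out, 0 of the 7 erythroid genes still tested was 1.5-fold lower and their median log2 ratio was -0.06, against -5.09 with those cells in, or -4.98 where a gene without a UMI was set at its limit of 3 UMIs. Blood cells were defined by their globin share, so this shift follows from leaving them out. Against the Nkx2-1 cells, all 6 erythroid genes tested were lower in the pooled counts, with a median of -3.59. That class held 1 blood cell among 213, and blood cells had a median globin share of 65.8%. Median globin shares per cell were close, at 0.0528% in the Gsx2 progenitors and 0.0572% in the Nkx2-1 cells. These pooled ratios therefore do not describe the typical cell, and the part carried by the 1 blood cell was not tested. The 3 other genes, Dct, Wnt8b and Rspo3, led against the neural cells as well.

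The 12 lowest genes against the neural cells were listed after the data had been seen. Dct, an enzyme of melanin synthesis that is also made in the early dorsal telencephalon, had no UMI in the Gsx2 progenitors and was at least 20.3-fold lower than the 23.3 CPM of all other progenitors, with 3 UMIs taken as the limit of a count of 0, and the exact interval of its ratio reached up to 0.0607. Wnt8b, a Wnt ligand of the medial pallium, had 10 UMIs and 3.84 CPM against 88.6, a ratio of 0.0433 (0.0208 to 0.0797). Split by YFP and set against all other progenitors of the same YFP group, Wnt8b had 2 unlike ratios. These were 0.0124 in cells with at least 3 YFP UMIs and 0.178 in cells with none. Rspo3, which amplifies Wnt signals, had 6 UMIs and a ratio of 0.0393, and Neurog2, the proneural factor of the pallium, had 19 UMIs and 7.29 CPM against 101, a ratio of 0.0722.

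Wls, the carrier of Wnt proteins, had 4 UMIs and a ratio of 0.0530. Bmp7, a BMP ligand, and Dmrt3, a pallial zinc finger factor, had 3 UMIs each, at ratios of 0.0470 and 0.0556. Sp5, a zinc finger target of Wnt signalling, had 2 UMIs and a ratio of 0.0412. The ammonia transporter Rhcg, the tight junction protein Cldn3, the adaptor Dok5 and the ligand Fgf18 had 1 UMI each, between 0.0259 and 0.0298. All 12 were at or under 7.29 CPM in the Gsx2 progenitors.

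These genes were low beside a comparator that held 1263 Emx1 cells, a class the rule keeps out of the members. Against the 524 neural cells of the same gate without a Gsx2 UMI, Rspo3 stood at 0.0572 (0.0208 to 0.126), Wls at 0.0942 (0.0252 to 0.248), Wnt8b at 0.142 (0.0667 to 0.267) and Neurog2 at 0.166 (0.0986 to 0.264), though all 4 had under 300 UMIs there. Levels in those cells were 40.3 CPM for Rspo3, 27.1 for Wnt8b and 43.9 for Neurog2, between the Gsx2 progenitors and the Emx1 cells at 87.7, 118 and 200.

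Each gene list is read against 1.98% of all genes higher and 7.17% lower, and a list whose genes define the classes kept out by the rule is low in part by that choice. Of the pallial list, 10 of 13 genes tested were lower and none higher, with a median log2 ratio of -2.22. Neurog1, Wnt7b, Dmrta2 and Dmrta1 lay between 0.117 and 0.209, while Emx2 stood at 0.644 (0.567 to 0.728). Pax6, the pallial and dorsal lateral ganglionic eminence factor, and Lhx2, a LIM factor of the cortical primordium, stayed within 1.5-fold at 0.740 and 0.743. For Pax6 this held in cells with at least 3 YFP UMIs (0.860) but not in cells with none (0.560, 0.438 to 0.706). Of the genes of the cortical hem, the dorsomedial source of Wnt and BMP signals, 6 of 7 were lower, with a median of -4.45, or -3.52 with Msx1, which had no UMI, set at its limit. The exception was Wnt5a at 1.45 (0.949 to 2.12).

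**Figure D2:**
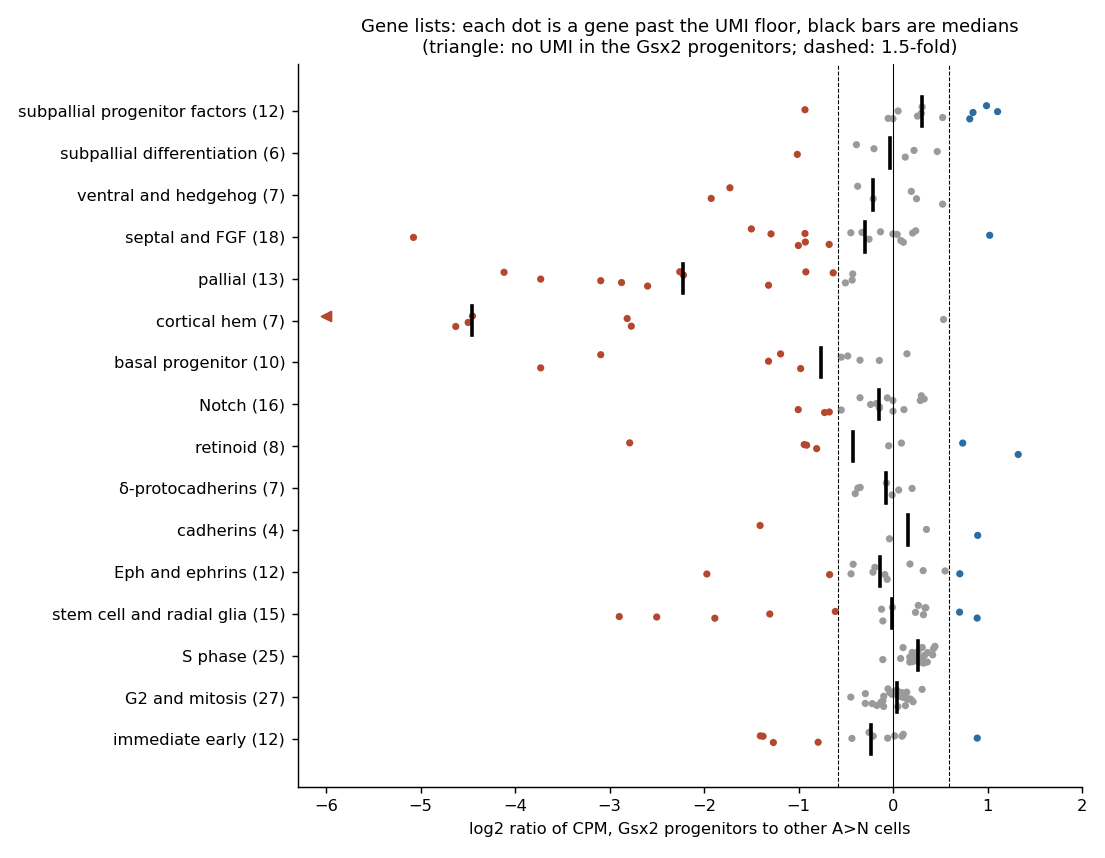
Log2 ratio of Gsx2 progenitors to the other progenitors of the septal explants (horizontal axis) for the genes of 16 lists (rows), with 1 dot per gene, a bar at each list's median and a triangle for Msx1, which had no UMI in the Gsx2 progenitors. The hem and pallial lists sit far below 0 and the subpallial progenitor list sits above it, at a median of 0.30.

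Among subpallial progenitor factors, 4 of 12 were higher, with Olig2, Meis2 and its relative Meis1 at 1.80 among them, and the zinc finger factor Sp8 was lower at 0.523, with a median of 0.30. Gsx1, the close relative of Gsx2, had only 11 UMIs and stayed under the floor. The forebrain factors Six3 and Otx2 were level with the other progenitors at 0.998 and 1.04. Of genes of subpallial differentiation, 6 of 17 were abundant enough, of which 1 was lower, and the median was -0.04. Gad1 and Dlx6 were at 0, and Dlx5 had 8 UMIs (3.07 CPM). In cells with at least 3 YFP UMIs Dlx5 stood at 1.95 (0.691 to 4.48) and Isl1 at 1.49 (0.820 to 2.51). In cells without a YFP UMI they stood at 1.98 (0.226 to 8.01) and 1.58 (0.668 to 3.23). Each of these intervals included 1.

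Of the septal and FGF list, 7 of 18 were lower and Fgf15 alone was higher, with a median of -0.29. The feedback inhibitors Spry1 and Spry2 stood at 0.408 and 0.353, and Il17rd, another FGF antagonist, at 0.525. The zinc finger genes Zic2 and Zic5 stood at 0.499 and 0.625. Zic4 stayed at 173 CPM against 206. Of the ventral and hedgehog list, the coreceptors Gas1 (120 against 397 CPM, ratio 0.302) and Cdon (0.263) were lower, and the receptor Ptch1 at 1.14 and the signal transducer Smo at 0.863 stayed within the fold, as did Gli2 at 1.44 and Gli3 at 0.770. The list had 2 of 7 lower and a median of -0.21.

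Of the Notch list, 3 of 16 were lower, namely the ligand Dll1 at 0.626, the target Hey1 at 0.498 and the receptor Notch2 at 0.604, with a median of -0.15. Notch1 stood at 1.25. Hes1 and Hes5, the Notch targets that the rule uses, stood at 63.7 against 148 CPM and 182 against 149 CPM and are given as a description. Of 10 basal progenitor genes 5 were lower (Neurog2, Neurog1, Eomes, Insm1 and the growth arrest gene Gadd45g at 0.507), with a median of -0.76. The median was -0.049 without the Dlx condition. Against the same gate without Gsx2 UMIs, blood cells included, it was 0.31 over the 6 genes of the list past the floor there and 0.12 over all 10, beside 0.17 for all genes, while Neurog2 stayed lower at 0.202 (0.120 to 0.321). Against the neural cells Dll3, a Notch ligand in both lists, was lower too, which made 4 of 16 Notch genes and 6 of 10 basal progenitor genes. No gene of the S phase list (25 tested, median 0.26) or of the G2 and mitosis list (27 tested, median 0.04) passed 1.5-fold in either direction.

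Radial glia and stem cell genes divided. The receptor phosphatase Ptprz1 was higher at 1.85 (1.62 to 2.102), as was Hmga1, a chromatin protein of early progenitors, at 1.63 (1.26 to 2.06). The nuclear factor I genes were lower, with Nfia at 0.270, Nfib at 0.404 and Nfix at 0.134, as were the glycolytic enzyme Aldoc at 0.176 and the membrane protein Ttyh1 at 0.654. In all 2 of 15 were higher and 5 lower, with a median of -0.01. Of the retinoid list, 2 of 8 were higher, with the receptor Rxra at 1.66 among them, and 4 lower (the binding proteins Crabp1 and Crabp2 at 0.145 and 0.570, the receptor Rara and the synthesis enzyme Rdh10), with a median of -0.43. Against the neural cells Crabp1 dropped under the floor and the median was 0.04.

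Of adhesion genes, none of 7 δ-protocadherins passed 1.5-fold, with a median of -0.07. Pcdh8, the adhesion gene the study is about (chr14:79766775-79771312), had 17 UMIs and 6.52 CPM against 8.46, a ratio of 0.771 (0.445 to 1.25) that did not separate the populations. Its level of 6.52 CPM (3.80 to 10.4) lay below that of the neural cells of the same gate without a Gsx2 UMI. Those stood at 16.1 CPM (13.2 to 19.6) from 103 UMIs, and Pcdh8 had under 300 UMIs in this comparison. The Nkx2-1 cells stood at 7.69 CPM of Pcdh8 and the Emx1 cells at 6.57. Dbx1, the homeobox factor studied with it, had 6 UMIs and 2.30 CPM against 6.88, a ratio of 0.335 (0.122 to 0.735). It was the lower of the 2 antihem genes tested, beside the Wnt antagonist Sfrp2 at 1.42, with a median of -0.54. Dbx1 stood at 2.13 CPM in the Emx1 cells and at 26.6 in the Nkx2-1 cells. In cells with at least 3 YFP UMIs its ratio was 0.216 (0.0259 to 0.789). In cells with none it was 0.478 (0.0974 to 1.42), an interval that included 1. Of classical cadherins Cdh7 was higher at 1.86 and Cdh11 lower at 0.377 (4 tested, median 0.16). Of 12 Eph receptors and ephrins, Ephb1 was higher at 1.63 and Epha5 (8 UMIs) and Ephb4 were lower at 0.255 and 0.627 (median -0.14), and the interval of Ephb4, like that of Rara, reached 0.999.

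Markers of mesenchyme, macrophages and the oligodendrocyte lineage had few UMIs. Of the mesenchyme list, all 4 genes tested were lower (median -3.54) beside a comparator with mesenchymal cells, and none reached the floor once those cells were left out. Of its 4 defining markers Col1a1 was the most abundant, with 5 of their 13 UMIs. Endothelial transcripts were 17 UMIs of Pecam1 (ratio 0.906, median -0.14) with Cldn5, Kdr and Cdh5 at 0. Macrophage transcripts were 2 UMIs of C1qb with Csf1r and Cx3cr1 at 0, and no macrophage or oligodendrocyte lineage gene reached the floor. The 3 defining Cajal-Retzius markers had 53 UMIs in 23.3% of the cells, 50 of them Lhx5, the single gene of that list tested, at a ratio of 0.452 (log2 -1.15). The 4 erythroid markers had 1215 UMIs and at least 1 in 99.4% of the cells, at 466 CPM against 15518 in the other progenitors. Six6, an eye field gene, had no UMI and was at least 5.98-fold lower, and Tcf7l2 of the diencephalon stood at 1.29 (median of the pair -1.11 with Six6 at its limit). Immediate early genes, which respond to dissociation, had 4 of 12 lower (Fos at 0.577, with Egr1, Junb and Klf6) and Klf2 higher at 1.85, with a median of -0.23. Against the neural cells 3 of 10 were lower, without Junb.

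**Figure D3:**
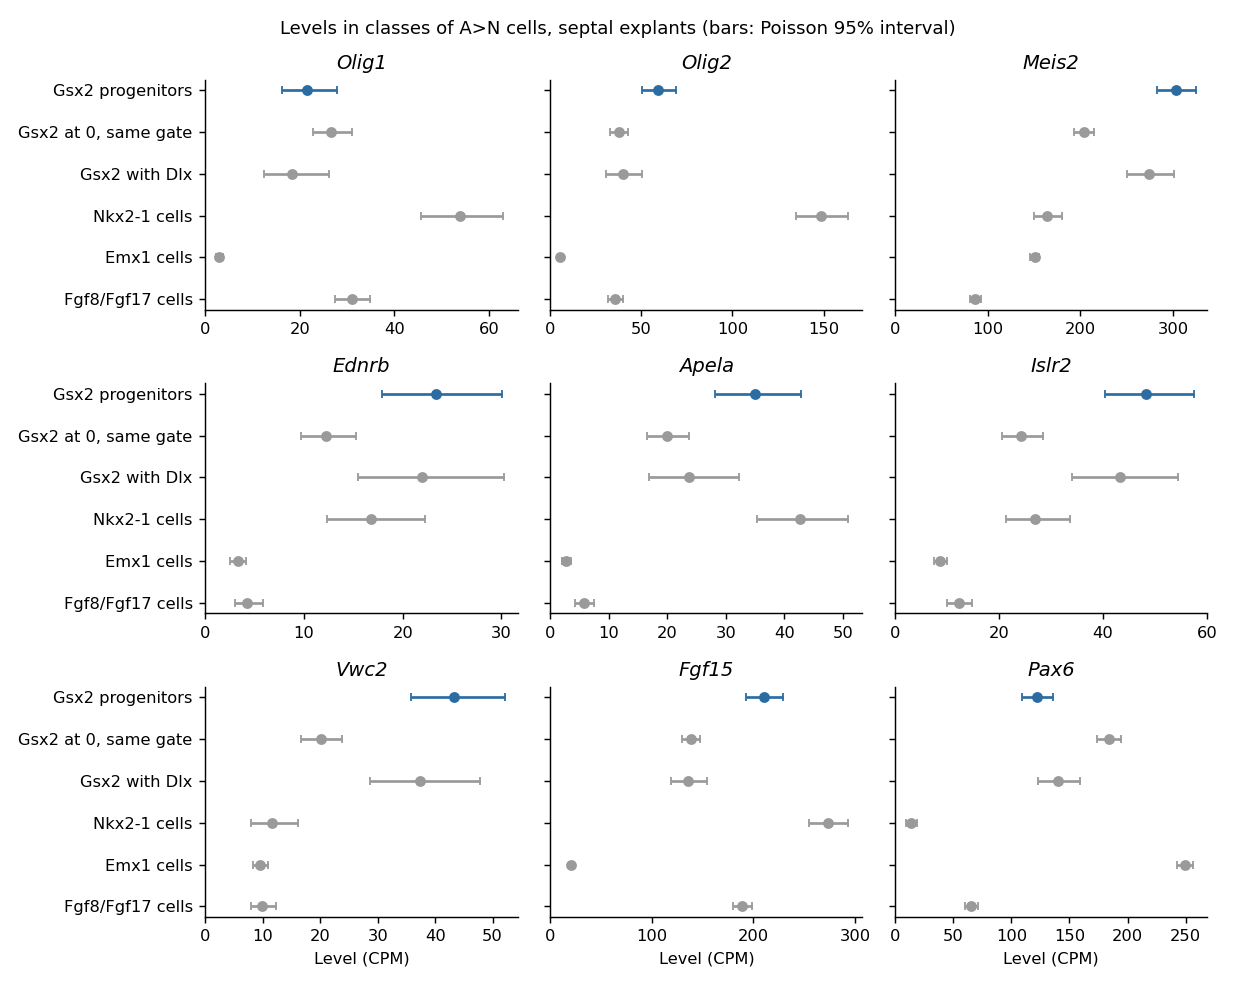
Level of 9 genes (panels) in 6 classes of septal progenitors, in CPM on the horizontal axis, from zero, with 95% Poisson bars and 1 row per class. The Gsx2 progenitors and the cells with Dlx transcripts overlap and stand above the other classes for Islr2 and Vwc2, the Nkx2-1 cells for Olig1, Olig2 and Fgf15, and the Emx1 cells for Pax6.

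The Gsx2 progenitors were also compared with single classes of the same library. Some genes, such as Pax6 and Olig2, lay between the Nkx2-1 and Emx1 cells, and others lay above both, such as Islr2 at 48.3 CPM against 26.9 and 8.6, and Meis2 at 303 against 164 and 151. Genes named in these comparisons beyond those above were chosen after their values had been seen. Against the 213 Nkx2-1 cells, 130 of 5766 genes with at least 100 UMIs (2.25%) were higher and 206 (3.57%) lower. Pax6 was 122 CPM against 13.6, a ratio of 8.95 (6.41 to 12.8), Vwc2 3.76 (2.53 to 5.72), Emx2 2.98 (2.35 to 3.81) and Gas1 2.65 (2.16 to 3.29). All 3 pallial genes tested were higher. Olig2 was 59.1 against 149 CPM, a ratio of 0.398 (0.329 to 0.479), and Olig1 21.5 against 53.8 CPM, a ratio of 0.399 (0.289 to 0.545). Ptch1, a hedgehog target, stood at 0.316 (0.214 to 0.456), the guidance ligand Slit2 at 0.145, and Mbip at 0.111. Apela was 34.9 against 42.6 CPM, a ratio of 0.819 (0.617 to 1.08) that included 1. Neither Zbtb20, at 196 against 224 CPM, nor Fgf15, at 210 against 274 CPM, was higher than in the Nkx2-1 cells. Of 11 subpallial progenitor factors 6 were lower and Meis2 alone was higher.

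Against the 1263 Emx1 cells, 157 of 6790 genes with at least 300 UMIs (2.31%) were higher and 308 (4.54%) lower. Fgf15 was 210 CPM against 20.1, a ratio of 10.5 (9.21 to 11.9). Six3 stood at 8.95 (7.34 to 10.9) and the Notch-related imprinted gene Dlk1 at 6.42. Olig2 at 11.6 (8.996 to 14.9) and Apela at 13.0 (9.21 to 18.4) had under 300 UMIs in this comparison and are not among the genes counted. Of 8 subpallial progenitor factors 6 were higher, and all 11 pallial genes tested were lower, among them Pax6 at 0.489 (0.435 to 0.547) and Neurog2 at 0.0365. The Pax6 level of the Gsx2 progenitors, 122 CPM (109 to 136), lay above the Nkx2-1 cells and below the Emx1 cells. That place was not particular to them. The cells of the same gate with at least 2 Dlx UMIs stood at 140 CPM (123 to 159). The 524 neural cells of the same gate without a Gsx2 UMI stood at 184. Cells past the Fgf8 and Fgf17 limit, without Nkx2-1 or Emx1 UMIs, stood at 65.3.

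Against the 107 cells of the same gate with at least 2 UMIs of Dlx1 and Dlx2, 51 of 5023 genes with at least 100 UMIs (1.02%) were higher in the Gsx2 progenitors and 61 (1.21%) lower. Gadd45g was 48.0 CPM against 197, a ratio of 0.243 (0.196 to 0.299), Dll1 0.341 (0.251 to 0.460), the cell cycle inhibitor Cdkn1c 0.636 and the striatal factor Isl1 0.288 (0.170 to 0.473). Of the G2 and mitosis list 3 of 27 were lower as well, the kinases Aurka at 0.630 and Cdk1 at 0.662 and the kinesin Kif23 at 0.614, with a median of -0.30, and no S phase gene passed the fold. Id3, an inhibitor of bHLH factors, was higher at 2.097 (1.52 to 2.94) and Fgf15 at 1.55 (1.32 to 1.81). Ednrb, Islr2 and Vwc2 stood at 1.07, 1.12 and 1.16, each with an interval that included 1. The Gsx2 progenitors here held 0 or 1 Dlx UMI, 1 in 47 of the 176 cells. The 7 globin genes tested were lower here too in the pooled counts, beside 1 blood cell among the 107. Median globin shares per cell were close, at 0.0528% in the Gsx2 progenitors and 0.0540% in the 107 cells. The part of the pooled difference carried by the 1 blood cell was not tested.

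Against the 524 neural cells of the same gate without a Gsx2 UMI, only 8 of 3992 genes (0.2%) were higher and 20 (0.501%) lower. Zbtb20 at 1.70, Olig2 at 1.57 (1.27 to 1.93) and Fgf15 at 1.52 were among the higher genes. Meis2 stood just under the fold at 1.49, Mt3 at 1.40 (1.24 to 1.56) and Olig1 at 0.807 (0.585 to 1.10). The lower genes included the pallial factor Dmrta2 at 0.275, the Wnt agonist Rspo1 at 0.294, the homeobox factor Otx1 at 0.321, Gas1 at 0.431 and Pax6 at 0.663 (0.584 to 0.751). Pf4, a gene of platelets and embryonic macrophages, had 3 UMIs against 721, a ratio of 0.0102, and which cells carried it was not tested. Ednrb, Islr2 and Vwc2 had under 300 UMIs in this comparison, at ratios of 1.92 (1.35 to 2.71), 1.99 (1.56 to 2.53) and 2.16 (1.66 to 2.81).

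YFP transcripts divide the pooled embryos in part, since only the E11.5 embryos carried YFP. At least 3 YFP UMIs were found in 110 Gsx2 progenitors, 62.5% (54.9 to 69.7), against 58.5% of the others, and none in 47. A cell of a YFP embryo can lack a YFP UMI, so the YFP-negative cells are not all of E12.5, and stage and genotype cannot be told apart. Against the other progenitors of the same YFP group, 190 of 8150 genes (2.33%) were higher and 538 (6.6%) lower in the YFP-positive cells, and 127 of 5734 (2.21%) and 402 (7.01%) in the YFP-negative cells. Within the YFP-positive cells the ratio was 3.82 for Ednrb, 3.68 for Apela, 3.66 for Islr2, 3.31 for Vwc2 and 2.42 for Meis2. Within the YFP-negative cells it was 3.19, 3.82, 3.64, 3.33 and 1.87. Olig2 stood at 2.01 and 2.19. The ratios of these genes thus lay on the same side of 1 in both groups. Olig1 stood at 1.11 (0.744 to 1.59) and 1.15 (0.636 to 1.93), and both intervals included 1. Zbtb20 at 2.56 and 1.44, and Mt3 at 2.59 and 1.52, were farther apart. Pax6 stood at 0.860 and 0.560 (0.438 to 0.706), past the fold in the YFP-negative cells only. Emx2 stood at 0.584 and 0.755, past it in the YFP-positive cells only. Six3 stood at 1.14 and 0.775, both with intervals that included 1. Wnt8b stood at 0.0124 (0.00150 to 0.0449) and 0.178 (0.0766 to 0.352), with 2 and 8 UMIs in the Gsx2 progenitors.

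The telencephalic vesicle, which took no part in choosing the genes, gave 512 cells under the same rule among 8526 progenitors, with a median of 10544.5 UMIs. Its progenitors held more Nkx2-1 cells (19.4% against 5.59%) and fewer Emx1 cells (13.9% against 33.2%) than the septal library, so the comparators differ in makeup, and the kits differ too. In the vesicle 213 of 12643 genes (1.68%) were higher and 917 (7.25%) lower. Of 179 genes that were higher in the septal explants and tested in both libraries, 44 (24.6%) were at least 1.5-fold higher in the vesicle as well, against 0.827% of all 9186 genes. Of 644 lower genes, 228 (35.4%) were lower in the vesicle, against 3.64% of all. The same rule chose the members in both libraries and left the classes it keeps out in both comparators. Genes of those classes, such as the Emx1 cells, are therefore low in both libraries in part by that choice. The shares are given as a description.

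All 10 leading higher genes had ratios above 1 in the vesicle, and 9 passed 1.5-fold. Apela stood at 2.47 (2.14 to 2.85), Mt3 at 2.30 (2.08 to 2.55), Pou3f2 at 2.18 (2.03 to 2.33), Vwc2 at 2.13 (1.89 to 2.40), Ednrb at 1.90 (1.74 to 2.07), Meis2 at 1.85 (1.81 to 1.89) and Islr2 at 1.82 (1.44 to 2.27). Fgf15 was just below the fold at 1.45 (1.32 to 1.60). The 12 lowest genes were all at least 1.5-fold lower, with Wnt8b at 0.110 (0.0904 to 0.133), Rspo3 at 0.182 (0.164 to 0.201) and Neurog2 at 0.305 (0.254 to 0.363). These vesicle values included blood cells (34 among the 512 and 1131 among the others) and further non-neural cells. With all of them left out, 470 cells remained against 6353, 188 of 12238 genes (1.54%) were higher and 709 (5.79%) lower, and the leading genes kept these counts, with Wnt8b at 0.107 and Olig2 at 0.804 (0.710 to 0.908).

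Olig2 did not follow. In the vesicle it was 32.4 CPM against 39.5, a ratio of 0.822 (0.726 to 0.927). Olig1 stood at 1.23 (0.845 to 1.73). Set against single classes, the septal and vesicle cells lay on the same side of 1 for Olig2. It stood at 0.255 against the vesicle's Nkx2-1 cells and at 11.3 against its Emx1 cells, beside 0.398 and 11.6 in the septal explants. Pcdh8 was higher in the vesicle at 1.95 (1.58 to 2.40) and Dbx1 lower at 0.403 (0.233 to 0.649). Of the subpallial progenitor list 2 of 15 genes were higher and 4 lower in the vesicle, with a median log2 ratio of 0.02. Of subpallial differentiation genes 7 of 12 were lower there, with a median of -1.04. The pallial and hem lists had 11 of 17 and 13 of 14 genes lower.

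**Figure D4:**
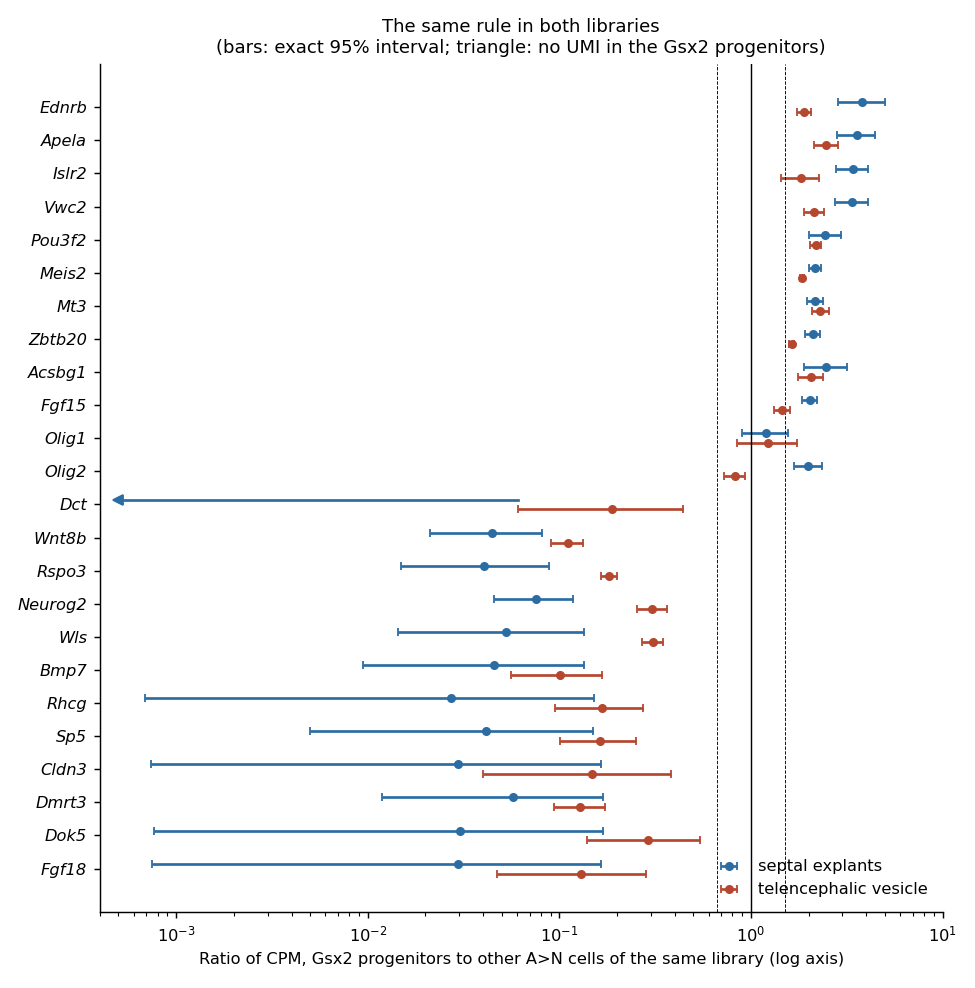
Ratio of Gsx2 progenitors to other progenitors (log axis) for the leading higher genes, Olig1, Olig2 and the leading lower genes, in the septal explants (blue) and the telencephalic vesicle (red), with 95% counting intervals and a triangle for Dct, which had no UMI in the septal cells. The higher and lower genes keep their side of 1 in both libraries, whereas Olig2 is above 1 in the septal explants and below 1 in the vesicle.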

How the data were processed

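Septal explants and telencephalic vesicle gave 1 pooled 10x Genomics 3′ library each (kits v2 and v3.1). The authors deposited UMI counts per gene and cell, made per the submitters' processing notes with Cell Ranger 2.1.1 and 7.1.0 on mm10. The paper gives default parameters for version 2.1.1, and whether intronic reads were counted is not spelled out in the sources used here. From the deposited counts, CPM were computed over the summed UMIs of each class (scipy 1.17.1 and pandas 2.3.3 under Python 3.11.15), with exact Poisson intervals for levels, exact conditional binomial intervals for ratios and Clopper-Pearson intervals for shares, all at 95%. With 1 library per tissue no test between samples was possible. The ratio code was tested on simulated data.

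A gene counted as higher or lower past 1.5-fold, among genes with at least 300 UMIs in both classes together (100 for the Nkx2-1 and Dlx classes). Rule genes, reporters and 56 repeated gene symbols were kept out or left as identifiers. Named genes were the 12 with the highest lower bound and the 12 with the lowest upper bound of the ratio, the proposed markers, Pcdh8, Dbx1 and members of 24 gene lists. Some genes are not reported here, but they stay in the counts and list medians. The members and the lists were chosen with earlier results of these data known. Blood cells had over 1% globin transcripts, and mesenchymal, vascular or macrophage cells at least 5 UMIs of those lists. Coordinates are from GENCODE on mm10. No doublets were removed: Scrublet's automatic threshold (scanpy 1.11.5) called 6 cells, 0.106%, and had not worked. Alternatives changed the UMI floor, the fold, the rule's conditions, the depth, the comparator and the embryos.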

Additional observations from a re-analysis of the deposited data

Results flagged for a closer look

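Among the named and listed genes, 2 were past 1.5-fold in the septal explants with the interval of their ratio on the opposite side of 1 in the telencephalic vesicle, as were 15 of all 9186 genes tested in both libraries. These differences between tissues were not tested, since each tissue was 1 library and the kits and comparators differed. Olig2 stood at 1.98 in the septal explants and at 0.822 in the telencephalic vesicle. Epha5, an Eph receptor with 8 UMIs in the septal Gsx2 progenitors, stood at 0.255 and at 2.55.

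The reporter tdTomato, which entered no comparison, had 6 UMIs in 6 of the 176 Gsx2 progenitors (3.41%, 1.26 to 7.27), against 6.47% of the other septal progenitors. In the 89 blood cells, with a median of 25668 UMIs against 13193, 3 cells held a UMI (3.37%, 0.701 to 9.54), so no order between these shares could be read.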

How the results depend on the processing

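Of 140 ratios of the 10 leading higher genes over 14 settings, 139 were at least 1.5, and the other was Zbtb20 at 1.44 (YFP-negative cells). The neural cells of the same gate without a Gsx2 UMI were not 1 of these settings. Against them Meis2 stood at 1.49 and Mt3 at 1.40. The counts of genes past the fold followed the settings: 374 higher and 1339 lower at a floor of 100 UMIs, 47 and 203 at 1000, 22 and 284 at 2-fold, 121 and 408 after thinning before the rule, 47 and 88 against the same gate without Gsx2 UMIs, 113 higher after thinning past the rule and 402 lower among YFP-negative cells. At least 2 Gsx2 UMIs left 91 cells and no Dlx condition 283. The shares with UMIs were 5.11% (Olig1) and 25% (Olig2) at 2 or more UMIs, and 10.5% and 33.7% when thinned. In the vesicle the counts were 401 and 1580 at a floor of 100 and 131 and 435 at 1000, and thinning before the rule left 334 cells.

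List medians (log2) moved as follows. Subpallial differentiation was -0.39 at the floor of 100, -0.33 thinned before the rule and -0.33 in YFP-negative cells, where hedgehog was -0.51 and immediate early -0.52. The basal progenitor list was -0.049 without the Dlx condition and 0.31 against the same gate without Gsx2 UMIs, where 4 of its 10 genes (Eomes, Neurog1, Insm1 and Dll3) fell under the floor; over all 10 it was 0.12. Against those cells subpallial progenitor factors were at 0.71, septal and FGF at 0.13, pallial at -0.29, Notch at 0.42, G2 and mitosis at 0.20, mesenchyme at -6.99, erythroid at -7.38 and immediate early at 0.14, with the median of all genes at 0.17. The erythroid list also ranged over -2.09 (no Dlx condition), -2.42 (YFP-negative), -3.26 (mitochondrial share within 3 deviations), -3.91 and -4.43 (thinned before and after the rule), -4.42 (depth weighted), -4.50 (progenitor over 2 times neuronal UMIs) and -0.061 (neural comparator), where Hbb-bs was 1.09 (0.763 to 1.52) and Alas2, with 3 UMIs and under the floor, 1.59 (0.314 to 5.0005), both intervals including 1. The neural comparators of both libraries and the non-neural filter were chosen after seeing the data. Removing 258 possible doublets took out 3 members. No paired analysis was possible because each tissue was 1 library. Depth limited genes under about 13.3 UMIs in the 176 cells.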
